A study of Mus musculus with 56 samples.

Results

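Bile acid synthesis and sterol export in the liver were followed through 10 genes, measured as poly(A) RNA in the livers of 56 female mice and taken from the 45513 genes listed for every liver. The 10 genes were chosen by name for their roles. They comprise 4 enzymes that turn cholesterol into bile acids (Cyp7a1, Cyp8b1, Cyp27a1 and Cyp7b1), a pair of nuclear receptors that restrain this synthesis (Nr0b2 and Nr1h4), the hepatocyte transporters that move bile acids out into bile and in from blood (Abcb11 and Slc10a1), and both subunits of the sterol exporter (Abcg5 and Abcg8). All 10 passed the filter on low counts and entered every test among 14314 genes.

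The liver disposes of cholesterol by converting it to bile acids and by secreting it, unchanged, into bile. Bile acids that return to the hepatocyte activate the farnesoid X receptor encoded by Nr1h4, which induces Nr0b2 (the small heterodimer partner SHP) and the bile salt export pump Abcb11, and SHP in turn represses Cyp7a1 and Cyp8b1. Sterol export by the ABCG5-ABCG8 heterodimer is under the liver X receptor, which senses oxidised cholesterol. The classical pathway starts with Cyp7a1 and the alternative pathway with Cyp27a1 and Cyp7b1, and Cyp7a1 is known for a strong daily rhythm.

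The mice carried the human APOE*3Leiden variant with APOC1, and human CETP under its own flanking sequences, which gives them a human-like lipoprotein profile. Aged 9 to 14 weeks when taken into the study, they ate a Western-type diet with 0.15% cholesterol and 15% cacao butter. After a run-in on this diet they were treated for 16 weeks in 7 groups of 8, and were correspondingly older when the livers were taken. The BCR-ABL1 kinase inhibitors were imatinib at 150 mg/kg given 2 times daily, nilotinib at 10 or 30 mg/kg and ponatinib at 3 or 10 mg/kg, the last 2 drugs once daily. A further group received the nitric oxide synthase inhibitor L-NAME at 0.12 to 0.20% in drinking water with vehicle by gavage. Control mice received the vehicle, 5% carboxymethyl cellulose, and mice not on imatinib were given vehicle at the second daily gavage. Each mouse gave 1 library, so the SDs below are spreads between animals. The standard errors (SE) of log2 fold changes come from 1 fit over all mice and measure the precision of an estimate.

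Reads on genes ranged from 5342379 to 17996732 in 55 mice and reached 97473341 in L-NAME replicate 2. Hepatocyte markers were abundant in every liver, with the summed level of 6 markers between 59950 and 140600 CPM (counts scaled to a common library size), whereas 7 cholangiocyte markers together stayed between 71.1 and 271 CPM. No marker gene was at 0 in all mice. In the comparisons with control, 4 of 6 hepatocyte markers were higher and 1 lower with ponatinib at 10 mg/kg, 3 were higher and 1 lower with imatinib and with L-NAME, and 2 of 5 Kupffer cell markers were lower with imatinib, where 13.1%, 10.3% and 11.8% of all genes tested were called with ponatinib at 10 mg/kg, imatinib and L-NAME. The share of reads falling outside annotated genes was 7.97% ± 0.42 (SD, n = 8) in control mice and had a mean of 8.53 to 11.0% in the treated groups. All 8 mice of both nilotinib groups, of ponatinib at 10 mg/kg and of L-NAME exceeded every control mouse in this share (exact two-sided permutation test, p = 0.0001554, the smallest that 8 against 8 can give). With imatinib 6 of 8 mice did so (exact permutation p = 0.001088) and with ponatinib at 3 mg/kg 3 of 8 (exact permutation p = 0.04662). In whole liver, fewer cells of a type and less RNA per cell cannot be told apart.

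Between genes, levels were compared per kilobase of exon. In control livers Slc10a1, the sodium-dependent bile acid uptake carrier, was highest at 253 ± 108 CPM per kb (SD, n = 8). Cyp27a1 followed at 177 ± 24.0, a difference smaller than the larger SD of the pair. A second tier held Abcb11 at 120 ± 25.3, Abcg5 at 97.7 ± 25.2, Cyp8b1 at 93.0 ± 30.3, Abcg8 at 66.9 ± 13.1 and Nr1h4 at 61.7 ± 15.6 CPM per kb, in which each neighbouring pair differed by less than its larger SD. Cyp7a1 at 28.9 ± 12.6 and Nr0b2 at 27.4 ± 8.00 could not be separated by their spread. Cyp7b1, the oxysterol 7-alpha-hydroxylase, was lowest at 11.4 ± 2.07 CPM per kb. The steps from Cyp27a1 to Abcb11, from Nr1h4 to Cyp7a1 and from Nr0b2 to Cyp7b1 exceeded the larger SD of each pair.

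**Figure D1:**
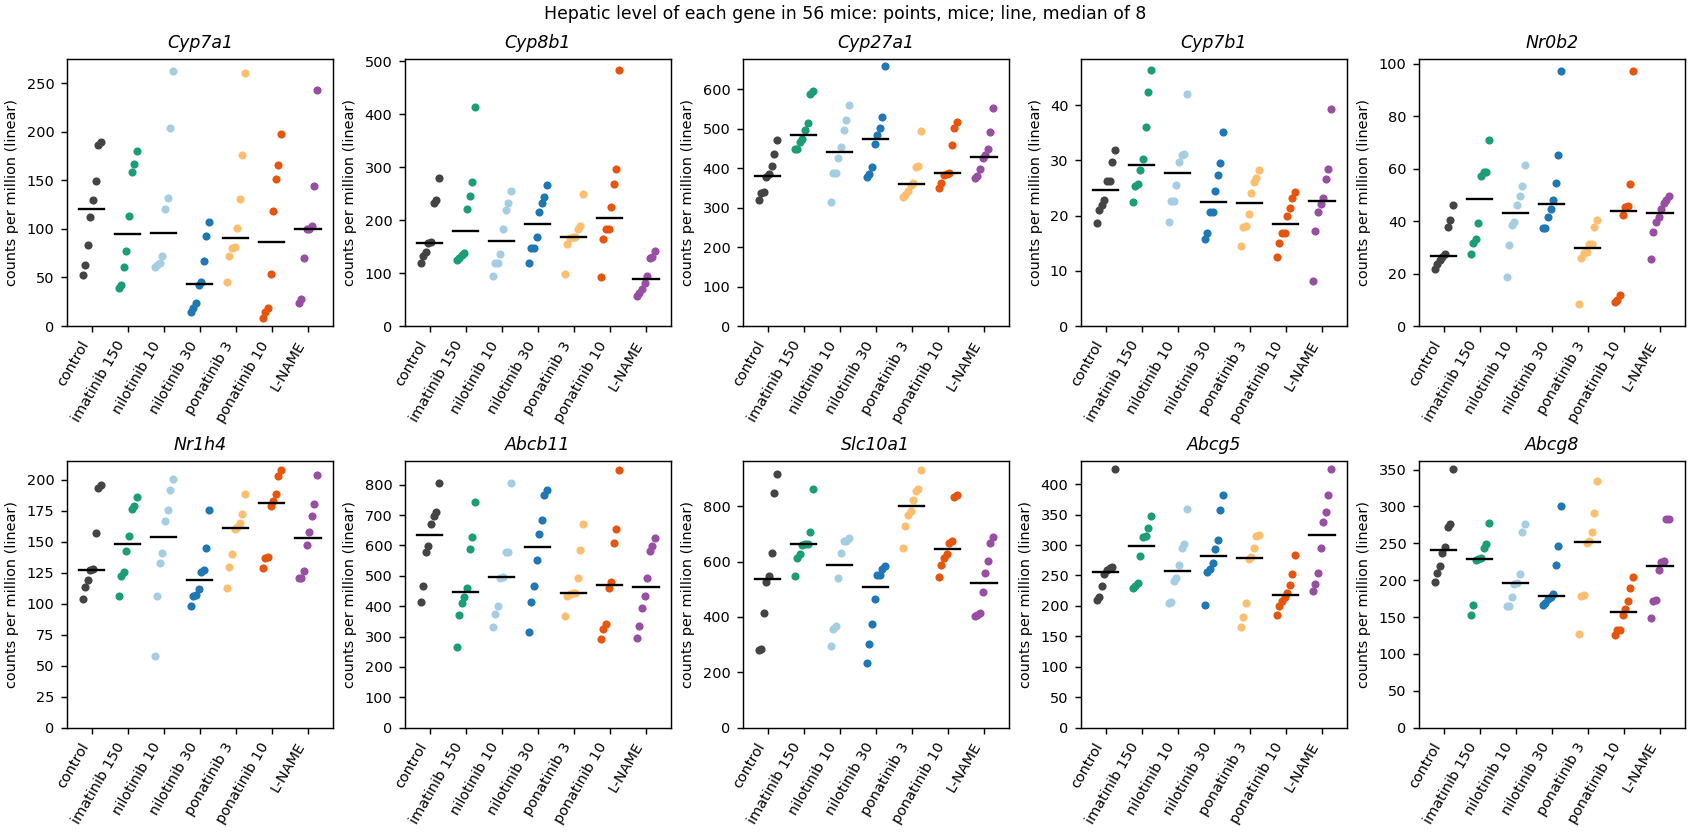
CPM of each of the 10 genes (linear axes starting at 0) in the 7 groups, where each point is 1 mouse, points within a group are sorted by value and the line is the median of 8. The L-NAME mice sit low for Cyp8b1, the ponatinib 10 mg/kg mice sit low for Abcg8, and Cyp7a1 spreads from 8.20 to 198 CPM within the latter group.

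Against control, few of the 10 genes were called at an adjusted p below 0.05. With an edgeR quasi-likelihood fit over all mice and Benjamini-Hochberg adjustment over all genes tested, 1 of 10 was called with imatinib (background 10.3% of genes), 0 with nilotinib at 10 mg/kg (1.41%), 0 with nilotinib at 30 mg/kg (5.77%), 0 with ponatinib at 3 mg/kg (0.0419%), 1 with ponatinib at 10 mg/kg (13.1%) and 1 with L-NAME (11.8%). These shares were near the background. The genes that passed were Cyp27a1 with imatinib, Abcg8 with ponatinib and Cyp8b1 with L-NAME. At an unadjusted p below 0.01 the counts were 1 (background 12.9%), 0 (5.97%), 1 (9.35%), 1 (3.14%), 1 (15.0%) and 1 (14.0%) in the same order, which added Cyp27a1 with nilotinib at 30 mg/kg and Slc10a1 with ponatinib at 3 mg/kg. All comparisons use the same 8 control mice.

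**Figure D2:**
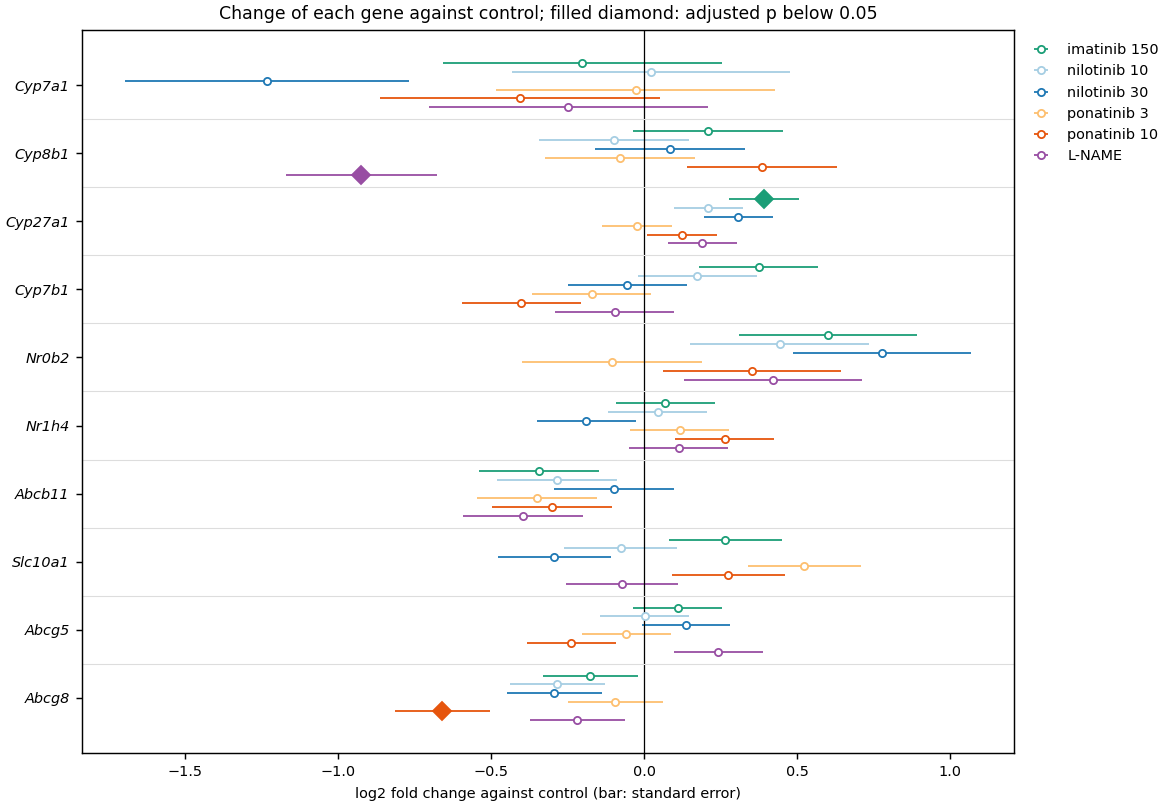
Log2 fold change of the 10 genes against control for the 6 treated groups, with bars of 1 standard error. Filled diamonds mark the 3 values with an adjusted p below 0.05, which are Cyp8b1 with L-NAME (-0.92), Cyp27a1 with imatinib (0.39) and Abcg8 with ponatinib at 10 mg/kg (-0.66).

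Cyp7a1, the rate-limiting enzyme of the classical pathway (chromosome 4, 6265612 to 6275633, minus strand, GRCm38), varied widely between mice within every group. Control mice had 52.6 CPM at the lowest, 121 at the median and 189 at the highest. With nilotinib at 30 mg/kg the corresponding values were 14.5, 43.7 and 107 CPM. All 8 of these mice lay below the control median and 5 of 8 lay below every control mouse, so the groups overlapped. The log2 fold change was -1.23 (SE 0.46, 95% interval -2.16 to -0.30) and did not pass (adjusted p = 0.1073, with 0.007845 to 0.3702 over 10 alternative settings), while the exact two-sided permutation test on this single gene gave p = 0.008392. With ponatinib at 10 mg/kg the lowest mouse had 8.20, the median was 86.0 and the highest mouse had 198 CPM, a 24.1-fold range against 3.6-fold in the control group. Its log2 fold change in this group was -0.41 (SE 0.46, adjusted p = 0.6395) and ranged from -1.30 to -0.29 over 10 alternatives (adjusted p 0.04184 to 0.8493), with 1 call, that of limma voom with quality weights. Nilotinib at 10 mg/kg, imatinib and ponatinib at 3 mg/kg had medians of 96.1, 95.1 and 90.8 CPM, and L-NAME had 100. The 95% interval of the Cyp7a1 log2 fold change was wide in these groups too, at -1.11 to 0.71 for imatinib.

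Cyp8b1 is the sterol 12-alpha-hydroxylase, which directs synthesis towards cholic acid (chromosome 9, 121914356 to 121916305, minus strand). Its level in L-NAME livers was 55.8 CPM at the lowest, 88.3 at the median and 142 at the highest, against 118, 157 and 279 CPM in control livers. All 8 L-NAME mice were below the control median and 5 of 8 were below the lowest control mouse. Cyp8b1 fell by 0.92 on the log2 scale (SE 0.25, a ratio of 0.527, adjusted p = 0.008055), and the exact permutation test gave p = 0.002331. The call held under 8 of 9 alternative settings (adjusted p 0.002817 to 0.2027). It was lost with the share of reads outside genes as a covariate (log2 fold change -0.69, adjusted p = 0.2027), a share that was higher in all 8 L-NAME mice than in every control mouse. In the other treated groups Cyp8b1 medians were 160 to 205 CPM and none was called.

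Cyp27a1, the mitochondrial sterol 27-hydroxylase that opens the alternative pathway (chromosome 1, 74713574 to 74737892, plus strand), was the steadiest of the 4 enzymes. Control mice had 321 CPM at the lowest, 381 at the median and 472 at the highest, and imatinib mice had 448, 485 and 595 CPM. All 8 imatinib mice exceeded the control median and 5 of 8 exceeded the highest control mouse. Cyp27a1 rose by 0.39 on the log2 scale (SE 0.11, 1.31-fold, adjusted p = 0.01787; exact permutation p = 0.000777). This call held in all 10 alternative settings, with adjusted p between 0.002483 and 0.03522. Cyp27a1 is also made by macrophages. In the same comparison the summed level of the 5 Kupffer cell markers had a median of 533 CPM with imatinib against 877 CPM in control livers. Their median log2 fold change was -0.25, with Adgre1 and Cd5l lower. The summed level of the 6 hepatocyte markers had a median of 102300 CPM against 103900 CPM in control livers. Their median log2 fold change was 0.39, with 3 called higher and 1 lower (background 10.3% of genes). The part of these shifts in the Cyp27a1 value was not tested. With nilotinib at 30 mg/kg the Cyp27a1 log2 fold change was 0.31 (SE 0.11), with 7 of 8 mice above the control median, but it did not pass (adjusted p = 0.09794, and 0.0307 to 0.13 over the alternatives).

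Cyp7b1, which hydroxylates oxysterols along the alternative pathway (chromosome 3, 18071950 to 18243338, minus strand), did not pass against control in any group. Its median was 24.6 CPM in control mice, 29.2 with imatinib and 18.5 with ponatinib at 10 mg/kg. The log2 fold changes of 0.37 (SE 0.19) for imatinib and -0.40 (SE 0.20) for ponatinib at 10 mg/kg pointed in opposite directions. The direct comparison of these groups is given below with the other drug comparisons.

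Nr0b2 encodes SHP, a receptor without a DNA-binding domain that represses Cyp7a1 and Cyp8b1 (chromosome 4, 133553376 to 133556536, plus strand). Control mice had 21.8 CPM at the lowest, 26.8 at the median and 46.1 at the highest. Nilotinib at 30 mg/kg gave 37.2, 46.4 and 97.2 CPM, with all 8 mice above the control median and 4 of 8 above the highest control mouse. The log2 fold change was 0.78 (SE 0.29, 95% interval 0.19 to 1.36) and missed the threshold (adjusted p = 0.1068, and 0.001615 to 0.4332 over 10 alternatives), while the exact permutation test on this gene gave p = 0.004351. With imatinib all 8 mice were also above the control median, at a log2 fold change of 0.60 (SE 0.29, adjusted p = 0.1974). Ponatinib at 10 mg/kg split widely, with Nr0b2 at 9.24, 9.79 and 11.8 CPM in 3 mice and between 42.2 and 97.3 CPM in the other 5. The 3 mice low in Nr0b2 had Cyp7a1 at 119 to 166 CPM, but the mouse highest in Cyp7a1, at 198 CPM, had Nr0b2 at 42.2 CPM. The highest Nr0b2 level of the group, 97.3 CPM, stood in the mouse with the lowest Cyp7a1, 8.20 CPM.

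The 250 bases upstream of the Nr0b2 start in RefSeq (chr4:133553126-133553375, plus strand, GRCm38.p6) are shown because Nr0b2 ran against Cyp7a1 from mouse to mouse. Capitals mark an E-box, the hexamer CACGTG that basic helix-loop-helix factors such as CLOCK recognise, beginning at position -195.
Nr0b2 upstream: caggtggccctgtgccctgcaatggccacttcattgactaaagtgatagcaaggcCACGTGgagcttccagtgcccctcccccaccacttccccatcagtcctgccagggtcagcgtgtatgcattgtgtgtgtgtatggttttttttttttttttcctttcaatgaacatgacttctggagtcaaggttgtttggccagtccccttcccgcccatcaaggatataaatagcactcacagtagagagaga
An E-box occurred in 7.15% of the 32851 promoters in the table (each from 250 bases before to 50 after a start, both strands), and among the 8 genes of the 10 with a promoter entry Nr0b2 was the one with a match. A match describes letters and not a bound site. Of 13 genes of the daily clock examined below, Nr0b2 correlated with 1 after adjustment.

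Nr1h4 encodes FXR, the bile acid sensor of the hepatocyte (chromosome 10, 89454234 to 89533585, minus strand). Its group medians lay between 119 CPM with nilotinib at 30 mg/kg and 181 CPM with ponatinib at 10 mg/kg, and no comparison with control passed. Log2 fold changes ran from -0.19 to 0.26 with an SE of 0.16. The lowest mouse of all, at 57.6 CPM, belonged to nilotinib at 10 mg/kg.

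Abcb11, the bile salt export pump of the canalicular membrane (chromosome 2, 69238282 to 69342616, minus strand), had a lower estimate than control in all 6 treated groups, and none passed. Control mice had 415 CPM at the lowest, 636 at the median and 805 at the highest. L-NAME mice had 294, 464 and 624 CPM, all 8 below the control median. The log2 fold change was -0.40 (SE 0.20, adjusted p = 0.2007). In the remaining groups the fold changes ranged from -0.35 to -0.10. Because the 6 values share the control mice, their common sign does not count as repeated evidence.

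Slc10a1, the NTCP carrier that takes bile acids up from portal blood (chromosome 12, 80953183 to 80968705, minus strand), was highest with ponatinib at 3 mg/kg. These mice had 650 CPM at the lowest, 802 at the median and 930 at the highest, against 280, 538 and 918 CPM in control mice. All 8 were above the control median and 1 was above the highest control mouse. The log2 fold change of 0.52 (SE 0.18, 95% interval 0.15 to 0.89) did not pass (adjusted p = 0.29, and 0.02016 to 0.5753 over 10 alternatives). The control group itself spanned 3.28-fold in Slc10a1, the widest control spread of the 10 genes after Cyp7a1.

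Abcg5 and Abcg8 are half-transporters that only together carry sterols into bile. Abcg8 (chromosome 17, 84676302 to 84700333, plus strand) fell with ponatinib at 10 mg/kg. Its level was 126 CPM at the lowest, 157 at the median and 204 at the highest, against 197, 241 and 351 CPM in control mice. Of these 8 mice, 7 were below every control mouse and all 8 were below the control median. Abcg8 fell by 0.66 on the log2 scale (SE 0.16, a ratio of 0.633, adjusted p = 0.002376; exact permutation p = 0.0003108). The call held in 9 of 10 alternative settings (adjusted p 0.0004201 to 0.07223) and was lost with the share of reads outside genes as a covariate, where the log2 fold change was -0.56 (adjusted p = 0.07223).

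Abcg5 (chromosome 17, 84658234 to 84683011, minus strand) did not pass in the same comparison. It had 184, 218 and 283 CPM with ponatinib at 10 mg/kg at the lowest, median and highest mouse, against 210, 256 and 426 CPM in control mice. The log2 fold change was -0.24 (SE 0.15, 95% interval -0.53 to 0.05). The log2 ratio of Abcg5 to Abcg8, taken in each mouse on CPM, had a median of 0.08 in control mice (-0.06 to 0.28). It was 0.51 with ponatinib at 10 mg/kg (0.18 to 0.83), 0.52 with nilotinib at 30 mg/kg (0.05 to 0.98) and 0.52 with L-NAME (0.17 to 0.96). Imatinib had 0.38 (-0.12 to 0.98), nilotinib at 10 mg/kg 0.35 (0.16 to 0.63) and ponatinib at 3 mg/kg 0.14 (-0.12 to 0.52). Ratios are given as a description, without a test. The exons of the 2 genes share 82 bases on opposite strands, 3.02% of Abcg5 and 2.19% of Abcg8, in which reads of an unstranded library cannot be assigned to either.

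The 2 genes lie head to head, and the 109 bases between the RefSeq start of Abcg5 and the nearer of the 2 RefSeq starts of Abcg8 (chr17:84683012-84683120, plus strand, GRCm38.p6) are shown because both genes are read outward from this interval. Capitals mark TTATCT, the reverse complement of the GATA factor motif AGATAA.
Abcg5-Abcg8 interval: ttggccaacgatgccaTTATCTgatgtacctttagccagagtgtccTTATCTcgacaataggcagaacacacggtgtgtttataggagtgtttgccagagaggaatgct
The interval held 2 such boxes and no half-site AGGTCA, the unit from which nuclear receptor elements are built. A GATA box on either strand occurred in 11.2% of all promoters in the table. This motif was added after the interval had been read.

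**Figure D3:**
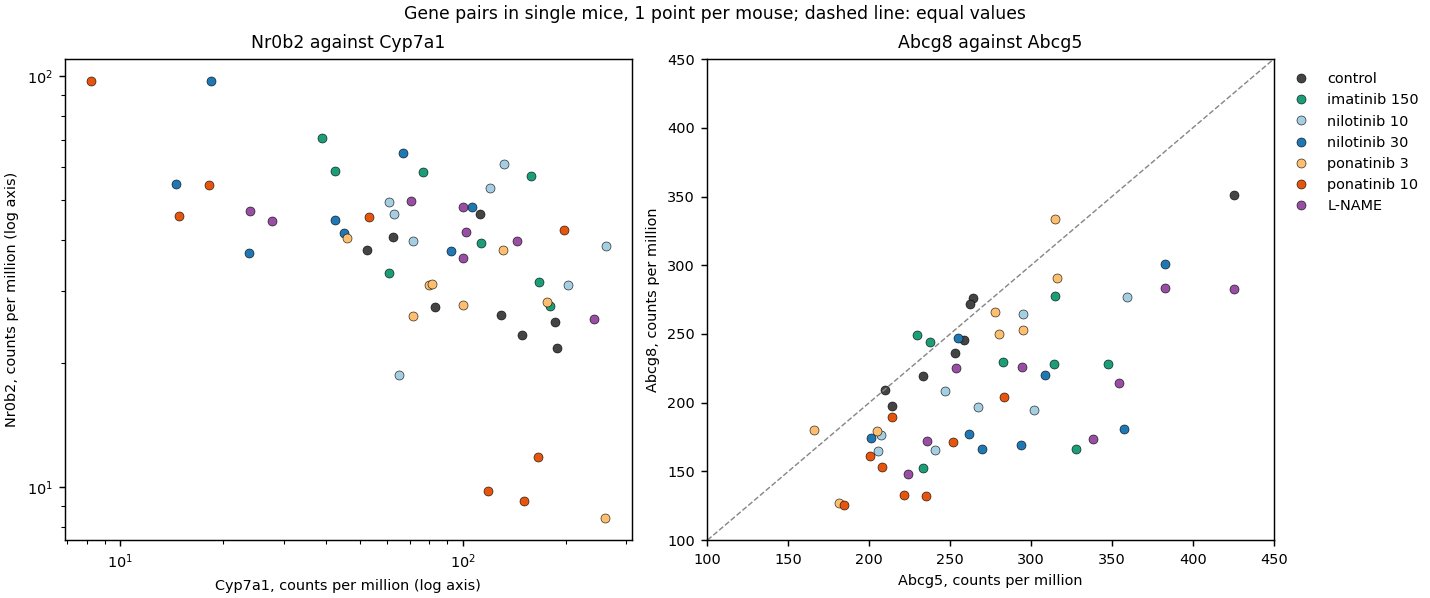
Each point is 1 mouse coloured by group. The left panel plots Nr0b2 against Cyp7a1 in CPM on log axes, where mice with little Cyp7a1 have much Nr0b2. The right panel plots Abcg8 against Abcg5 in CPM with a dashed line of equal values. All 8 mice of ponatinib 10 mg/kg, of each nilotinib dose and of L-NAME lie below the line.

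Differences between treated groups were tested in the same fit. Between the doses of ponatinib 1 of 10 genes passed (background 1.39%), as Abcg8 was lower at 10 than at 3 mg/kg by a log2 fold change of -0.57 (SE 0.16, 95% interval -0.88 to -0.25, adjusted p = 0.04545). This call held in 5 of 10 alternative settings (adjusted p 0.006186 to 0.3896). Between the doses of nilotinib 0 of 10 passed (background 0%, with 812 genes at an unadjusted p below 0.05 in edgeR and 2 called by DESeq2 and 0 by limma voom), where Cyp7a1 differed between 30 and 10 mg/kg by -1.26 (SE 0.47, 95% interval -2.19 to -0.33, adjusted p = 0.7454).

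Ponatinib and nilotinib could be compared at 1 dose matched in mg/kg, 10 mg/kg once daily, a comparison chosen after the data were seen. Plasma exposure was not matched, as the authors report a higher exposure to nilotinib than to ponatinib at this dose. None of the 10 genes passed (background 2.06%). The estimates farthest from 0 were those of Cyp7b1, with a log2 fold change of ponatinib over nilotinib of -0.58 (95% interval -0.97 to -0.18, adjusted p = 0.1025), and Cyp8b1, at 0.48 (95% interval -0.01 to 0.97). The intervals were -0.31 to 0.14 for Cyp27a1, -0.41 to 0.38 for Abcb11 and -1.34 to 0.48 for Cyp7a1.

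The other drug comparisons were made at unequal doses and schedules. Ponatinib at 10 mg/kg against imatinib at 150 mg/kg separated Cyp7b1 (1 of 10, background 1.08%). Cyp7b1 was 12.5, 18.5 and 24.2 CPM at the lowest, median and highest ponatinib mouse, and 22.5, 29.2 and 46.4 CPM in imatinib mice. All 8 ponatinib mice lay below the imatinib median and 6 of 8 lay below every imatinib mouse. The log2 fold change was -0.78 (SE 0.20, adjusted p = 0.02678; exact permutation p = 0.0004662), and the call held in 9 of 10 alternatives (adjusted p 0.01232 to 0.1159). Against nilotinib at 30 mg/kg, 0 of 10 genes passed for ponatinib at 10 mg/kg (background 1.88%) and 0 for imatinib (3.59%). The nearest was Slc10a1, higher in estimate than with nilotinib by 0.57 for ponatinib (SE 0.19, adjusted p = 0.09559) and 0.56 for imatinib (SE 0.19, adjusted p = 0.07649), with 7 of 8 mice of either drug above every nilotinib mouse. At an unadjusted p below 0.01 the counts were 1 of 10 between ponatinib doses (background 5.78%), 1 between nilotinib doses (1.32%), 2 for ponatinib at 10 mg/kg against imatinib (4.09%), 2 and 1 for ponatinib and imatinib against nilotinib at 30 mg/kg (5.64% and 7.55%), and 1 at the matched dose (6.73%).

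From mouse to mouse the 10 genes did not vary independently. After removal of group means from log2 CPM, 18 of the 45 pairs correlated across the 56 mice at an adjusted p below 0.05 (100000 permutations within groups), 14 positively and 4 negatively. The same number passed without the 2 mice farthest from the median of each first gene. The closest pair was Abcg5 and Abcg8 (Pearson r = 0.697, Spearman rho = 0.662, both p = 1e-05, the smallest the permutations can give, adjusted p = 0.000225), with a positive r in all 7 groups and r = 0.671 without the 2 farthest mice. Cyp8b1 varied together with Abcb11 (r = 0.613, rho = 0.595, permutation p = 2e-05 for each, adjusted p = 0.0003), again positive in all 7 groups and at 0.553 without the 2 mice.

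Cyp7a1 ran against its repressor Nr0b2, with r = -0.599 and rho = -0.564 (permutation p = 0.00014 and 7e-05, adjusted p = 0.00105 for r), negative in 6 of 7 groups and -0.521 without the 2 farthest mice. It also ran against Abcb11 (r = -0.58, rho = -0.579, permutation p = 8e-05 and 6e-05, adjusted p = 0.00072, negative in all 7 groups, -0.561 without the 2 mice). Nr1h4, the receptor, tracked Cyp7a1 positively (r = 0.529, rho = 0.587, adjusted permutation p = 0.000225 for each, 0.514 without the 2 mice). Nr1h4 ran against Abcb11 (r = -0.562, rho = -0.555, permutation p = 3e-05 and 6e-05, adjusted p = 0.000337, -0.507 without the 2 mice). Cyp8b1 did not correlate with Nr0b2 (r = -0.00737, adjusted permutation p = 0.967). A further group held together across uptake, export and the alternative pathway, in which Cyp27a1 with Slc10a1 was closest (r = 0.52, rho = 0.564, permutation p = 0.00024 and 5e-05, adjusted p = 0.00154, 0.457 without the 2 mice). The share of reads outside genes passed with none of the 10 genes after group means were removed (r from -0.225 to 0.139).

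**Figure D4:**
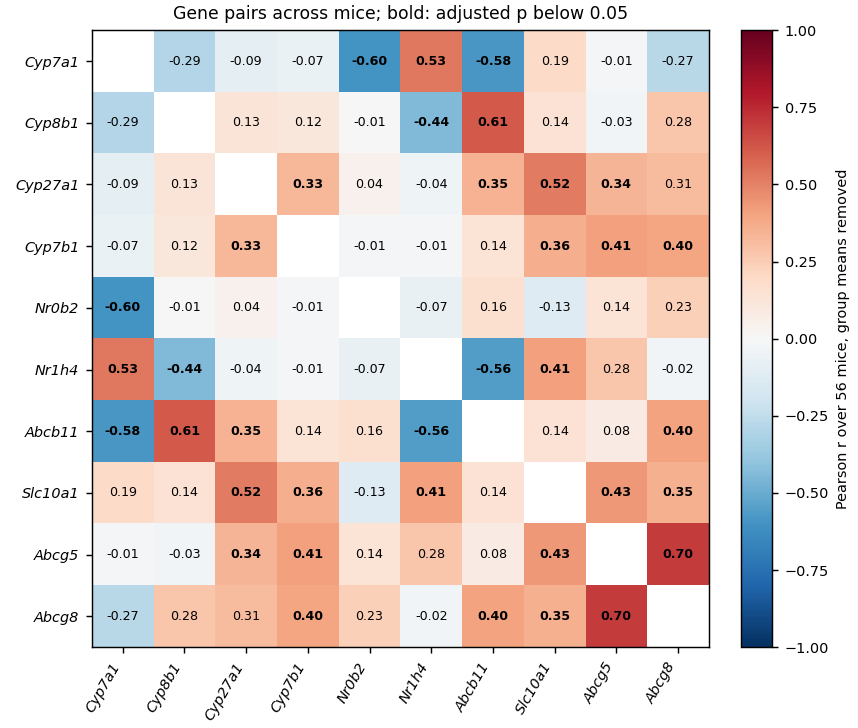
Pearson r of log2 CPM for each pair of the 10 genes over 56 mice with group means removed, from -1 (blue) to 1 (red). Bold values have an adjusted p below 0.05, among them Abcg5 with Abcg8 at 0.70 and Cyp7a1 with Nr0b2 at -0.60.

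The upstream sequences of Abcb11 and Cyp8b1, which varied together, are shown for comparison (250 bases before the RefSeq start, both genes on the minus strand and read 5' to 3', GRCm38.p6). Abcb11 lies at chr2:69342617-69342866 and Cyp8b1 at chr9:121916306-121916555, and capitals mark a nuclear receptor half-site, here TGACCT as the reverse complement of AGGTCA.
Abcb11 upstream: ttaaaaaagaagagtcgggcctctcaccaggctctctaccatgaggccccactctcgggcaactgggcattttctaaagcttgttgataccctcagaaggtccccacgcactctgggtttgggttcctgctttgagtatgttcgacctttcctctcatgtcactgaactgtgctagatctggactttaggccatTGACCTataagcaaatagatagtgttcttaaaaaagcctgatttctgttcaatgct
Cyp8b1 upstream: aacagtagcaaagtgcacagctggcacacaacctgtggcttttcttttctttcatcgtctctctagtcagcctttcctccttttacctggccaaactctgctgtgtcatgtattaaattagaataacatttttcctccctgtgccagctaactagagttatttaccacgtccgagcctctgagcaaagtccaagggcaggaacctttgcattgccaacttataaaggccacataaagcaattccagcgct
Abcb11 had 1 half-site at position -56, and Cyp8b1 had none in this window. The half-site occurred in 16.3% of all promoters. Neither gene held 2 exact half-sites as a direct repeat (AGGTCANAGGTCA in 0.0396% of promoters, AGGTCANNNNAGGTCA in 0.0152%) or as an inverted repeat (AGGTCANTGACCT in 0.00913%). Only exact letters were searched. In Abcb11 the letters aggcca stand 1 base before the marked half-site, and the whole differs from that inverted repeat by 1 letter.

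Much of this variation moved with genes of the daily clock. A list of 13 clock genes was examined, and its members are named here although they were chosen after their values were seen, since 0 of 13 passed in any comparison with control. Between mice of one group these genes differed widely. Dbp, an output of the clock, ranged from 3.64 to 340 CPM among control mice and from 4.36 to 540 CPM with ponatinib at 10 mg/kg. Arntl, which encodes the activator BMAL1, ranged from 0.616 to 30.5 CPM among control mice.

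Of 140 relations of the 10 genes with the 13 clock genes and the share of reads outside genes, 55 passed after adjustment, all of them with clock genes. Nr1h4 passed with 12 of 13 clock genes (8 positive, 4 negative), Abcb11 with 12 of 13 in the mirror pattern (4 positive, 8 negative), Cyp8b1 with 12 of 13 (4 positive, 8 negative) and Cyp7a1 with 11 of 13 (8 positive, 3 negative). Cyp27a1 and Cyp7b1 passed with 0 of 13, Nr0b2 and Abcg8 with 1, Slc10a1 with 2 and Abcg5 with 4. Nr1h4 followed Per3 at r = 0.811 and rho = 0.831 (permutation p = 1e-05, adjusted p = 4.83e-05), positive in all 7 groups and 0.781 without the 2 farthest mice. Abcb11 ran against Per2 at r = -0.819 and rho = -0.835 (permutation p = 1e-05, adjusted p = 4.83e-05), negative in all 7 groups and -0.825 without the 2 mice. Cyp7a1 ran against Arntl at r = -0.716 and rho = -0.717 (permutation p = 1e-05, adjusted p = 4.83e-05, -0.697 without the 2 mice), and Cyp8b1 followed Npas2 at r = 0.678 and rho = 0.692 (permutation p = 1e-05, adjusted p = 4.83e-05, 0.655 without the 2 mice).

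The first principal component of the 13 clock genes, which held 72.5% of their variance, gave each mouse a score that was high where Per3, Dbp and Tef were high and Arntl, Clock and Npas2 were low. Scores ran from -6.89 to 3.85, with 22 mice below 0 and 34 above, and no gap wider than 1.03. Nilotinib at 30 mg/kg had 6 of 8 mice below 0 and a median of -3.50, control had 3 of 8 and a median of 0.61, and ponatinib at 3 mg/kg had 1 of 8. With group means removed, the score correlated over all mice at 0.646 with Cyp7a1, 0.814 with Nr1h4, -0.798 with Abcb11 and -0.605 with Cyp8b1. Values on each side of 0 cannot be set against these, since group means were kept and the range of scores was narrower. Among the 34 mice above 0 the correlation of Cyp7a1 with the score was 0.03, and among the 22 below 0 it was 0.104. Nr1h4 had 0.465 above 0 and 0.471 below 0. Abcb11 had -0.145 above 0 and -0.481 below 0. Cyp8b1 had -0.338 below 0 and 0.561 above 0, values that include differences between groups.

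**Figure D5:**
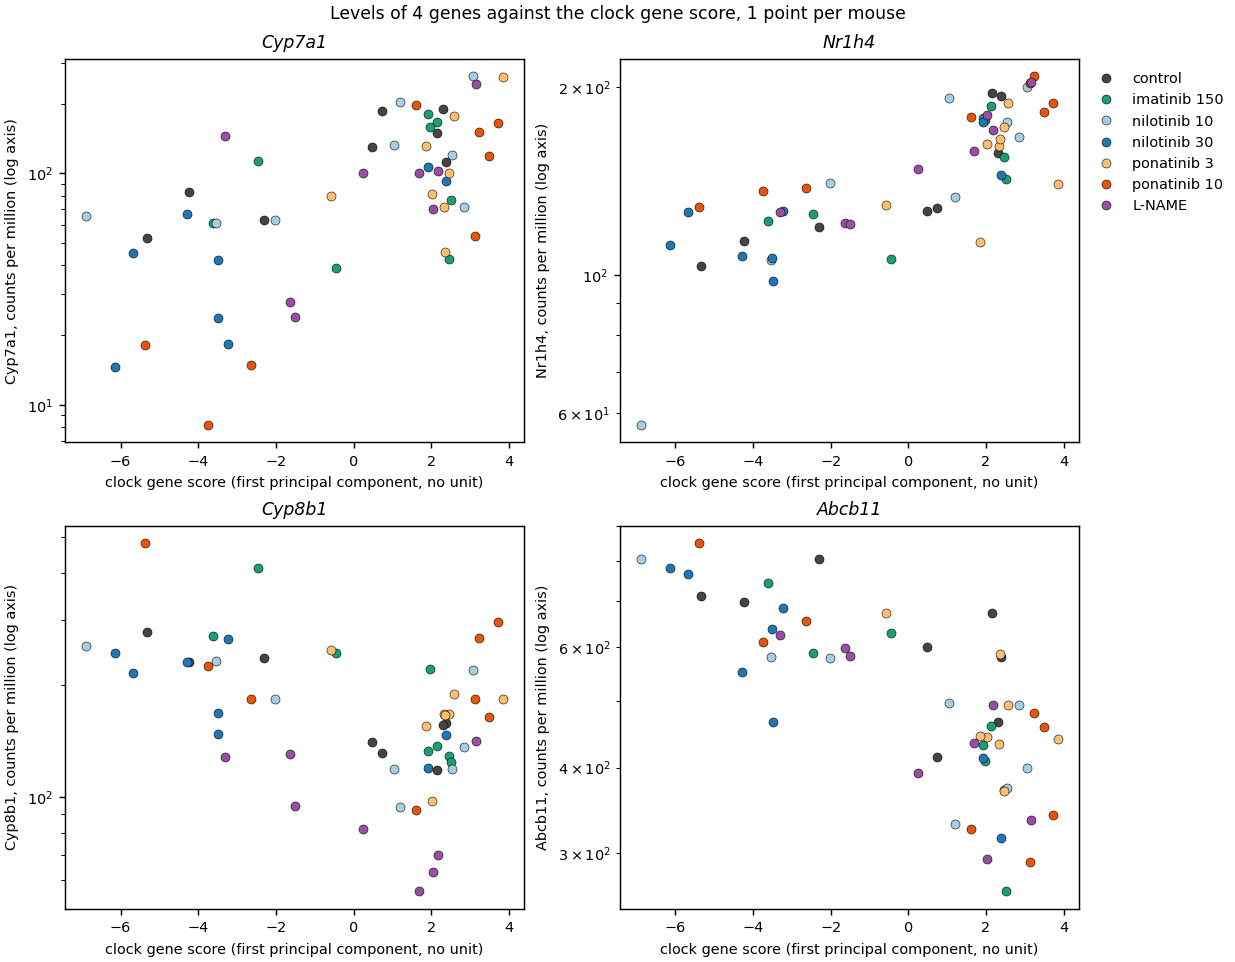
CPM (log axes) of Cyp7a1, Nr1h4, Cyp8b1 and Abcb11 against the clock gene score, a unitless principal component, with 1 point per mouse coloured by group. Nr1h4 and Cyp7a1 are higher and Abcb11 is lower at the high end of the score, and 6 of the 8 nilotinib 30 mg/kg mice sit below 0.

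Some pairs kept their correlation when the score was removed and others did not. Without the score, Nr1h4 with Cyp7a1 went from r = 0.529 to 0.00766, Cyp7a1 with Abcb11 from -0.58 to -0.141, and Nr1h4 with Abcb11 from -0.562 to 0.249. Cyp8b1 with Abcb11 went from 0.613 to 0.271. Cyp7a1 with Nr0b2 stayed at -0.566 and Abcg5 with Abcg8 at 0.748. Abcb11 with Slc10a1 moved from 0.144 to 0.6. These residual values are descriptions without a test.

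With the score as a covariate in the edgeR fit, an alternative chosen after the data were seen, all 3 calls against control held (Cyp27a1 with imatinib at 0.40, adjusted p = 0.01324; Abcg8 with ponatinib at 10 mg/kg at -0.65, adjusted p = 0.00218; Cyp8b1 with L-NAME at -0.80, adjusted p = 0.004263). The standard error of the Abcb11 log2 fold change narrowed from 0.20 to 0.13, and Abcb11 was then called lower with nilotinib at 30 mg/kg (-0.40, adjusted p = 0.03201), against -0.10 without the covariate and an adjusted p of 0.03201 to 0.9879 over all 10 alternatives. The Cyp7a1 value moved towards 0 for the same group, from -1.23 to -0.79 (adjusted p = 0.1818), and away from 0 for ponatinib, from -0.41 to -0.88 at 10 mg/kg (adjusted p = 0.1065) and from -0.03 to -0.56 at 3 mg/kg (adjusted p = 0.8613).

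The neighbours of the 10 genes in the pathway were read from lists of other enzymes, transporters, receptors and liver X receptor targets. Their counts stand beside a background of 10.3% of all genes called with imatinib, 1.41% and 5.77% with the lower and higher dose of nilotinib, 0.0419% and 13.1% with those of ponatinib, and 11.8% with L-NAME. Of 14 tested enzymes of later or parallel steps, 3 passed with imatinib (2 higher, 1 lower), 4 with ponatinib at 10 mg/kg (1 higher, 3 lower), 4 with L-NAME (1 higher, 3 lower) and 0 with either nilotinib dose or the low ponatinib dose. The median log2 fold change of the list was 0.05 with imatinib, -0.11 with ponatinib at 10 mg/kg and -0.15 with L-NAME, beside -0.02, -0.01 and 0.02 over all genes tested. Acox2, which opens side-chain shortening, fell by 0.76 with ponatinib at 10 mg/kg (adjusted p = 0.001367), from a median of 184 to 109 CPM. Hsd17b4, the bifunctional enzyme of the same cycle, fell by 0.30 in that group (adjusted p = 0.01889), as did the thiolase Scp2 by 0.29 (adjusted p = 0.02835), and Hsd17b4 fell by 0.34 with L-NAME (adjusted p = 0.007566). Abcd3, the peroxisomal importer of bile acid precursors, fell by 0.48 with L-NAME (adjusted p = 0.008016). Acot8, a peroxisomal thioesterase, rose with imatinib (0.88, adjusted p = 0.004762) and with L-NAME (0.67, adjusted p = 0.02911). Cyp2c70, which makes the muricholic acids of mice, fell by 0.49 with imatinib (adjusted p = 0.04508).

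Of 9 tested transporters of bile acids and biliary lipids, 4 were lower with ponatinib at 10 mg/kg and 3 with L-NAME, none higher, with list medians of -0.48 and -0.45 beside -0.01 and 0.02 over all genes tested. Imatinib had 1 higher, nilotinib at 30 mg/kg 1 lower, and the 2 low-dose groups 0. Abcb4, the canalicular phospholipid floppase, fell by 0.55 with ponatinib at 10 mg/kg (SE 0.12, adjusted p = 0.001211), with a median of 227 CPM against 323 in control mice, and by 0.46 with L-NAME (adjusted p = 0.007243). Abcc3, a basolateral exporter of conjugates, fell by 0.65 with ponatinib (adjusted p = 0.001255) and by 0.52 with L-NAME (adjusted p = 0.01029). Abcc4 fell by 1.91 with ponatinib (SE 0.44, adjusted p = 0.001816), from a median of 37.1 CPM, with a control range of 9.07 to 108, to 10.8 CPM. Slco1b2, a sodium-independent uptake carrier, was lower with nilotinib at 30 mg/kg (-0.46, adjusted p = 0.03585) and with L-NAME (-0.45, adjusted p = 0.02433).

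Of 13 tested regulators, 2 were higher with imatinib, 2 lower with nilotinib at 30 mg/kg, and 1 higher and 2 lower with L-NAME. The other 3 groups had 0. List medians were -0.21 for nilotinib at 10 mg/kg, 0.08 for ponatinib at 3 mg/kg and -0.12 for ponatinib at 10 mg/kg. They were -0.01 for imatinib, -0.30 for nilotinib at 30 mg/kg and -0.15 for L-NAME. Over all genes tested the medians lay between -0.02 and 0.03. Nr1i3, the constitutive androstane receptor, rose by 1.13 with imatinib (SE 0.23, adjusted p = 0.0006851), from a median of 405 to 1155 CPM. Hnf4a, a hepatocyte receptor needed for Cyp7a1 and Cyp8b1 expression, fell by 0.53 with nilotinib at 30 mg/kg (adjusted p = 0.00643) and by 0.47 with L-NAME (adjusted p = 0.008832). Klb, the co-receptor for the intestinal hormone that restrains Cyp7a1, fell by 0.93 with L-NAME (SE 0.26, adjusted p = 0.01273).

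Abcg5 and Abcg8 are targets of the liver X receptor, and 7 other targets were read beside them. With imatinib 4 were lower, with ponatinib at 10 mg/kg 3 were lower and 1 higher, and with both nilotinib doses and L-NAME 1 was lower. The list medians were -0.48 with imatinib, -0.43 with ponatinib at 10 mg/kg and -0.23 with L-NAME. They were -0.23 and -0.22 with nilotinib at 10 and 30 mg/kg, and -0.14 with ponatinib at 3 mg/kg. Abcg1, a cholesterol efflux transporter abundant in macrophages, fell by 1.48 with imatinib (SE 0.25, adjusted p = 5.217e-05) and by 1.33 with ponatinib at 10 mg/kg (SE 0.25, adjusted p = 0.0001839). Its medians were 19.1 and 19.3 CPM in these groups against 50.8 in control mice. The summed Kupffer cell markers had a median of 533 CPM with imatinib against 877 CPM in control mice. With ponatinib at 10 mg/kg the sum ran from 342 to 1719 CPM, with a median of 788. Gene by gene, 2 of 5 were lower and 0 higher with imatinib (median log2 fold change -0.25). With ponatinib at 10 mg/kg 1 was higher and 0 lower (median 0.26). The part of these markers in the Abcg1 values was not tested. Abca1 fell by 0.48 and 0.43 in the same comparisons (adjusted p = 0.009999 and 0.01782). Pltp, the phospholipid transfer protein, rose by 0.71 with ponatinib at 10 mg/kg (adjusted p = 0.002354). With imatinib, where Abca1 and Abcg1 fell, Abcg5 had a log2 fold change of 0.11 (95% interval -0.18 to 0.40) and Abcg8 of -0.18 (-0.49 to 0.13).

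The genes most like each of the 10 over the 56 mice, by Pearson r of log2 CPM with no group means removed, are given by name. The nearest to Abcg5 was Abcg8 and the reverse (r = 0.639). The nearest to Nr1h4 were Tef (0.803) and Per3 (0.794), both clock genes, and Mtss1 (0.786). The nearest to Abcb11 were Coq8a (0.887) and Tymp (0.857), to Slc10a1 Fads1 (0.876), Ces1c (0.851) and Ak3 (0.836), and to Cyp7a1 Gna12 (0.732), Ttc7 (0.727) and Marveld1 (0.711). Cyp8b1 was nearest to C2cd2 (0.655), Cyp27a1 to Hsd17b2 (0.681), Cyp7b1 to Sult2a8 (0.579) and Nr0b2 to Gm16731 (0.646). These are descriptions over livers that share treatment groups.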

How the data were processed

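Liver poly(A) RNA of 56 mice was sequenced, and the authors deposited whole-number counts of reads per gene, 1 file per mouse, made with TopHat2 2.0.14, Bowtie2 2.1.0, SAMtools 0.1.18 and HTSeq 0.6.1p1 (versions from the submitters' processing notes) on GRCm38. Between 2.01 and 3.65% of reads were ambiguous between genes. The library kit does not mark strand, and the hour of killing is not given in the sources used here. Rows that name no gene were left out of library sizes.

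Counts were scaled by TMM, filtered with filterByExpr and fitted with edgeR 4.0.16 (quasi-likelihood, R 4.3.3) over all 7 groups. Calls were made at an adjusted p below 0.05 (Benjamini-Hochberg, 14314 genes). The script was tested on simulated data. Log2 CPM used a prior count of 2. Exact two-sided permutation tests compared 8 mice with 8. Correlations used log2 CPM less group means and 100000 permutations within groups. Alternatives were RLE scaling, no filter, DESeq2 1.42.0, limma 3.58.1 voom with and without quality weights, an unadjusted p below 0.01, fits of 48 or 16 mice, and the share of reads outside genes as a covariate. The clock score covariate, the fit without L-NAME replicate 2, the clock correlations, the GATA box and the matched-dose comparison were added after the data were seen.

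All 10 genes were described. Other list genes could be named only if called against control, at most 8 per list by lowest adjusted p. Not every gene that qualified is named, and the others are only counted. The 3 genes of highest r (mean CPM of at least 1) for each of the 10 could also be named. A gene among those most like Abcb11 is not reported here. The 10 genes and the lists were chosen with earlier results of these data known. Sequences are from RefSeq (GRCm38.p6 table, 8 of 10 genes matched, without Cyp7a1 and Cyp7b1), and gene coordinates from GENCODE vM21 (GRCm38).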

Additional observations from a re-analysis of the deposited data

Results flagged for a closer look

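Single mice stood apart in 4 of 70 combinations of gene and group, by Dixon's test at its 95% critical value for 8 samples. Chance alone flags about 1 in 20. Cyp27a1 was 495.1 CPM in ponatinib 3 mg/kg replicate 1, against 405.5 in the next mouse. Nr0b2 was 97.2 CPM in nilotinib 30 mg/kg replicate 5, against 65.1 in the next, and 8.387 CPM in ponatinib 3 mg/kg replicate 3, against 26.0 in the next. The latter mouse had the highest Cyp7a1 level of its group, 260 CPM. Abcg5 was 425.7 CPM in control replicate 3, against 264 in the next mouse.

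A direct edgeR test separated 2 treatments for Abcg8, where ponatinib at 10 mg/kg lay below 3 mg/kg by a log2 fold change of -0.57. That call held in 5 of 10 alternative settings (adjusted p 0.006186 to 0.3896). It also separated 2 treatments for Cyp7b1, where ponatinib at 10 mg/kg lay below imatinib by -0.78. The Cyp7b1 call held in 9 of 10 (adjusted p 0.01232 to 0.1159).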

How the results depend on the processing

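Over 12 comparisons and 10 genes, 1310 alternative fold changes kept their side of the threshold and direction in 1239 cases, lost a call in 8 and gained one in 21. None of the called values reversed, and 42 alternative values changed sign where neither they nor the main value was called. Without L-NAME replicate 2, the deepest library, all 5 calls were kept. The causes of the changes below were not tested.

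Numbers in brackets are all genes called, of 14314 tested unless another total is given. Of the 10 genes, those called with nilotinib at 30 mg/kg against control went from 0 to 3 with quality weights (2349). They numbered 2 with 16 mice (1376 of 12814), 1 at an unadjusted p below 0.01 (1339) and 1 with the clock score (1522). Ponatinib at 3 mg/kg had 1 with quality weights (571) and 1 unadjusted (449). Imatinib had 2 with 16 mice (1687 of 12651), and ponatinib at 10 mg/kg had 2 with quality weights (3743). With the share of reads outside genes as a covariate, ponatinib at 10 mg/kg and L-NAME both had 0 (369 and 258). The ponatinib dose comparison had 0 with that covariate (0), with no filter (100 of 24040) and with voom (183). It also had 0 with 48 mice (151 of 14090) and with 16 mice (32 of 12464). Ponatinib at 10 mg/kg against imatinib had 0 with quality weights (131) and 2 unadjusted (585). Against nilotinib at 30 mg/kg, ponatinib at 10 mg/kg had 2 with quality weights (762) and 2 unadjusted (807). Imatinib had 1 with each of these (1075 and 1080) and 1 with 16 mice (548 of 12595). The nilotinib dose and matched-dose comparisons had 1 each unadjusted (189 and 964).

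Over all genes, quality weights gave 3327 calls for imatinib, 1240 and 2349 for the lower and higher nilotinib dose, 571 and 3743 for the lower and higher ponatinib dose and 3737 for L-NAME, against 1471, 202, 826, 6, 1877 and 1688. The covariate for reads outside genes gave 653 for imatinib, 13 and 96 for nilotinib, 369 for ponatinib at 10 mg/kg and 258 for L-NAME. Nilotinib at 10 mg/kg had 127 with no filter, 359 with DESeq2, 373 with voom, 855 unadjusted and 409 with the clock score. Nilotinib at 30 mg/kg had 1339 unadjusted, 1376 with 16 mice and 1522 with the clock score. Ponatinib at 3 mg/kg had 14 with no filter, 25 with DESeq2, 449 unadjusted, and 0 with voom, with 16 mice and with the clock score. L-NAME had 2561 with voom.

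The longest transcript in place of all exons moved 1 of the 10 control levels beyond its SD, that of Cyp27a1 (203 CPM per kb). No paired analysis was possible because the labels number each mouse once and share no number between groups, and the replicate numbers used here were given in order within each group. The lowest count of Nr0b2 in a mouse was 60.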
